A study of Mus musculus with 6 samples.

Results

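The genes described here encode the proteins of the mitochondrial ribosome. They were the rows of a gene count table of mouse brown adipose tissue, a fat that generates heat, whose symbols start with Mrpl or Mrps followed directly by a number. The rule found 77 genes among 24062 symbols, 48 named Mrpl for the large subunit and 29 named Mrps for the small subunit, and all 77 passed the filter on low counts that left 13300 genes for testing. The tissue came from male C57BL/6 mice at an age of 12 weeks, 3 labelled FAM195A heterozygous and 3 labelled FAM195A knock out. No wild-type group is among the samples used here, and the labels give neither a housing temperature nor the allele. The study concerns FAM195A, an RNA-binding protein, and the heat production of mice that lack it.

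Mitochondria keep a ribosome of their own, which translates the few mRNAs of the mitochondrial genome, all of them for subunits of the respiratory chain and ATP synthase. Its RNAs are made inside the organelle, whereas every protein of it is encoded in the nucleus, made in the cytosol and imported. Many of these proteins descend from bacterial ribosomal proteins, and others were added during the evolution of mitochondria. Brown adipocytes are rich in mitochondria and depend on the respiratory chain that this ribosome helps to build.

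The targeted gene itself did not separate the labels. Fam195a stood at 69.0, 70.5 and 102.8 CPM (counts scaled to a fixed library size) in heterozygous libraries 1 to 3 and at 50.5, 82.0 and 81.3 CPM in knockout libraries 1 to 3. Its log2 fold change was -0.18 (SE 0.241), with an edgeR quasi-likelihood adjusted p of 0.896, so the groups are called heterozygous-labelled and knockout-labelled throughout, and every direction rests on those labels. The labels do not say which part of the gene the allele removes. Libraries held 18781401 to 25084627 reads in genes, more in each knockout-labelled library than in any heterozygous-labelled one, and the lowest count of any mitoribosomal gene in any library was 279. All 12 brown adipocyte markers were present, with summed levels of 20476 to 21409 CPM and 20613 to 25613 CPM in the groups. Singly they differed, with 8 log2 fold changes below 0 and 4 above it. Elovl3, the 1 called, was higher (log2 fold change 1.03, edgeR quasi-likelihood adjusted p = 0.0418). It and Cidea were the 2 higher without overlap (16.7%, beside 8.11% of all tested genes). All 22 skeletal muscle markers were also present. Each was lower in the knockout-labelled libraries without overlap (100%, beside 9.89% of all tested genes), and edgeR called 0 of them. Their summed levels were 12062 to 35139 CPM against 4196 to 7519 CPM. In a piece of tissue, fewer cells of a type and less RNA per cell cannot be told apart. The labels name 3 mice per genotype, so p-values measure the spread between animals of these groups. Each group holds libraries whose titles begin with RF and with RE, so that spread includes any difference between these titles.

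Promoter sequence was available in RefSeq windows (GRCm38.p6, 250 bases before to 50 after a start) for 68 of the 77 genes, in 74 windows. The stretches below are shown because they belong to the members with the lowest log2 fold changes of each subunit or that fell, and to Mrpl55, the member with the highest. Each runs 5′ to 3′ on the gene's strand from 80 bases before the RefSeq start, and capitals mark a match to a searched motif.
Mrps27: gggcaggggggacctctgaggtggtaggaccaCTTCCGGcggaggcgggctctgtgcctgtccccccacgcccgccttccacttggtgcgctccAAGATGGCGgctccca
Mrps9: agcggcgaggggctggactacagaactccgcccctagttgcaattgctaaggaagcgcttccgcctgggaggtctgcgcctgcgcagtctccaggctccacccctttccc
Mrpl16: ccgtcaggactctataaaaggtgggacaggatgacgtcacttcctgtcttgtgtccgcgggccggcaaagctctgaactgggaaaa
Mrpl3: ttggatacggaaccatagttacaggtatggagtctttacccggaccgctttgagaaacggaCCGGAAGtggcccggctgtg
Mrpl55: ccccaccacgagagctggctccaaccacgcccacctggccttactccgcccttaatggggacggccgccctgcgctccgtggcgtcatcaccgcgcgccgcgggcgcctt

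These stretches lie on the plus strand at chr13:99344706-99344815, chr1:42851153-42851262, chr19:11770335-11770420, chr9:105053188-105053268 and chr11:59202406-59202515, in the order printed. The motifs searched, on both strands, were CCGGAAG for ETS factors such as GABP, GCATGCGC for NRF1, AAGATGGCG for YY1 and TCAAGGTCA for the estrogen-related receptors. These factors are known to act on nuclear genes of mitochondrial proteins. In the Mrps27 stretch the first capitals, from 48 to 42 bases before the start, are the ETS motif read on the other strand, and the second, from base 15 after it, are the YY1 motif. In the Mrpl3 stretch the capitals mark the ETS motif, from 19 to 13 bases before the start.

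The ETS motif was in 33.8% of the mitoribosomal windows, in 16.4% of the 12766 windows of tested genes and in 8.86% of all 32851 windows. The YY1 motif was in 10.8%, 2.79% and 1.40% of these, and the NRF1 motif in 10.8%, 4.96% and 2.71%. The estrogen-related receptor motif was in none of the mitoribosomal windows, 0.274% of the windows of tested genes and 0.423% of all windows. No searched motifs overlapped in a mitoribosomal window, and 35 of the 68 genes held at least 1 of the first 3. The genes that were lower in every knockout-labelled library are counted apart here: of the 20 of them with a window, 4 held the ETS, 4 the NRF1 and 2 the YY1 motif, and of the other 48 genes 21, 4 and 6 did. A match is a match of letters and no evidence of binding.

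In the test of single genes, 4 of the 77 members fell in the knockout-labelled libraries at an adjusted p under 0.05 over all 13300 genes, and none rose. Over all tested genes, 0.534% fell and 0.0526% rose by the same rule, so the calls in this family all lie in the direction that held most calls. At an unadjusted p under 0.05, 22 members (28.6%) were lower and 5 (6.49%) higher, beside 8.04% and 4.05% of all tested genes. The members that fell were Mrps27, Mrps9, Mrpl16 and Mrpl39, a pair from each subunit.

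Mrps27, a pentatricopeptide-repeat protein of the small subunit, had the lowest log2 fold change of the family. It measured 70.9, 55.2 and 62.4 CPM in the heterozygous-labelled libraries and 24.2, 34.1 and 24.9 CPM in the knockout-labelled ones. Every knockout-labelled value lay below every heterozygous-labelled value. The log2 fold change was -1.18 (SE 0.179, 95% interval -1.60 to -0.76, adjusted p = 0.0468 by the edgeR quasi-likelihood test, which gives every adjusted p below unless another tool is named). The gene lies on the plus strand of chromosome 13 from 99344786 to 99415562 in GRCm38 (the build mm10 names), and shares exon sequence with a non-coding gene on the other strand, 6430562O15Rik.

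Mrps9, the counterpart of a bacterial small-subunit protein, measured 64.0, 60.1 and 79.2 CPM against 30.4, 34.6 and 32.7 CPM. The groups were well apart, with the knockout-labelled mean at 48.1% of the heterozygous-labelled one by the fit. Its log2 fold change was -1.06 (SE 0.146, adjusted p = 0.0367). Mrps9 lies on chromosome 1 from 42851233 to 42905683, plus strand, and shares no exon with another annotated gene.

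Mrpl16, whose bacterial counterpart sits close to the tRNA sites of the large subunit, measured 61.7, 63.9 and 58.1 CPM against 35.1, 38.2 and 36.6 CPM. Mrpl39, a large-subunit protein without a bacterial counterpart, measured 135.2, 127.8 and 125.8 CPM against 77.1, 79.6 and 77.3 CPM. Both showed little spread within a group, and neither had overlapping groups. Their log2 fold changes were -0.74 (SE 0.114, adjusted p = 0.0475) and -0.73 (SE 0.109, adjusted p = 0.0426). Mrpl16 lies on chromosome 19 from 11770391 to 11774960, plus strand, and Mrpl39 on chromosome 16 from 84717576 to 84735742, minus strand.

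Leaving out single libraries left 2 calls without heterozygous library 1 (Mrps27 and Mrps9), 1 without knockout library 3 (Mrps9) and 0 without heterozygous library 2 or 3 or knockout library 1 or 2. Those 4 fits called 0, 8, 0 and 0 genes in the whole table. In them 19, 21, 20 and 25 members were lower at an unadjusted p under 0.05. These were 24.7%, 27.3%, 26.0% and 32.5% of the members, beside 6.64%, 6.52%, 7.07% and 6.88% of all genes. Over the whole table, 2.81% of genes were called lower without heterozygous library 1 and 0.730% without knockout library 3, beside 2.60% and 1.30% of the members. DESeq2 on all 6 libraries called 14 members (18.2%) and 4.85% of all genes it tested as lower. The library titles begin with RF for replicates 1 and 2 of each group and with RE for replicate 3, and the labels do not say what this means. Within the RF titles the log2 fold changes of Mrps27, Mrps9, Mrpl16 and Mrpl39 were -1.11, -0.93, -0.78 and -0.75. In the RE pair, with 1 library per group and no test, they were -1.31, -1.26, -0.66 and -0.70.

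**Figure D1:**
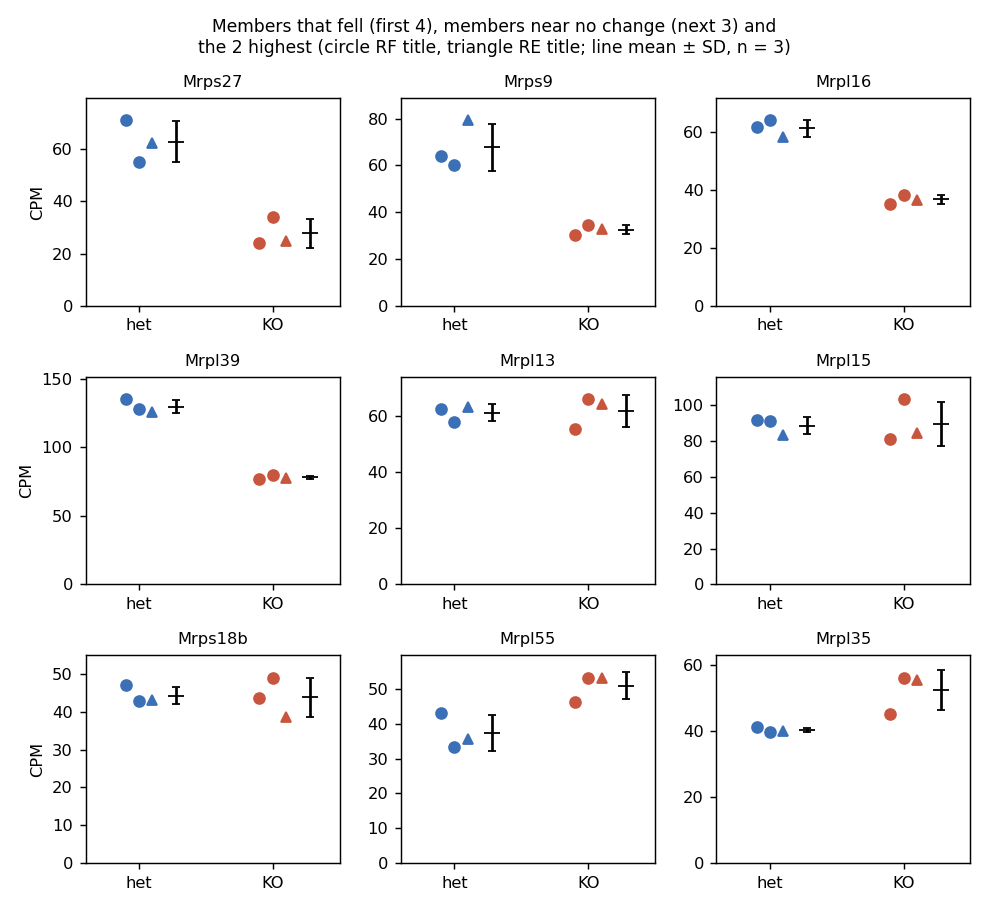
Levels of 9 mitoribosomal genes in CPM (vertical axes, starting at 0), heterozygous-labelled (het, blue) beside knockout-labelled (KO, red); circles are RF-titled and triangles RE-titled libraries, and the black marks show mean ± SD, n = 3. In the 4 genes that fell no red point reaches a blue one, Mrpl13, Mrpl15 and Mrps18b overlap, and for Mrpl55 and Mrpl35 every red point lies above the blue ones.

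Beyond the 4 calls, 23 of the 77 members (29.9%) were lower in every knockout-labelled library than in any heterozygous-labelled one. The share of all tested genes that did so was 9.89%. The opposite, every knockout-labelled library higher, held for 5 members (6.49%) against 8.11% of all tested genes. In all, 43 members had a log2 fold change below 0 and 34 above it, and the family's median was -0.08 beside 0.02 for all tested genes. On the log2 scale 23 members lay within 0.1 of no change.

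Among the members just outside the threshold, Mrpl3, the counterpart of a bacterial protein of the large-subunit core, measured 56.7, 55.4 and 73.6 CPM against 26.3, 41.5 and 32.1 CPM. Its log2 fold change was -0.89 (SE 0.203, adjusted p = 0.0862), and knockout library 2 lay nearest to the other group. Mrpl9, with a bacterial counterpart on the outside of the large subunit, measured 84.3, 72.5 and 95.4 CPM against 43.5, 50.6 and 55.6 CPM. Its log2 fold change was -0.75 (adjusted p = 0.0789), and it shares exon sequence with Oaz3 on the other strand. Mrpl44, which carries a ribonuclease III-like fold, measured 34.2, 34.8 and 33.8 CPM against 21.3, 26.0 and 20.6 CPM, a log2 fold change of -0.60 (adjusted p = 0.0894). In all of these the groups were apart, and none passed the test.

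Mrpl50, a mitochondria-specific protein of the large subunit, measured 141.8, 132.4 and 138.3 CPM against 75.3, 83.5 and 110.5 CPM, and its log2 fold change was -0.61 (adjusted p = 0.139). The RE-titled knockout library was the one nearest to the other group: the RF titles gave -0.79 and the RE pair -0.32. In the small subunit the next lowest were Mrps35 at -0.56 (adjusted p = 0.174), Mrps5 at -0.53 (adjusted p = 0.109) and Mrps2 at -0.51 (adjusted p = 0.163). Mrps5 and Mrps2 are counterparts of bacterial small-subunit proteins, and Mrps35 is mitochondria-specific.

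At the other end, Mrpl55 of the large subunit measured 43.0, 33.2 and 35.8 CPM against 46.4, 53.3 and 53.2 CPM. All knockout-labelled libraries were higher, the log2 fold change was 0.45 (SE 0.143), and the adjusted p of 0.227 was the smallest of any member above 0. Mrpl35 measured 41.2, 39.9 and 40.0 CPM against 45.3, 56.3 and 55.5 CPM (log2 fold change 0.38, adjusted p = 0.272). Mrpl30 measured 120.8, 113.5 and 122.0 CPM against 127.1, 162.6 and 168.6 CPM (log2 fold change 0.36, adjusted p = 0.362). Each of these had groups that did not overlap, and in each knockout library 1 was the closest to the heterozygous-labelled group. The remaining 2 without overlap were the small-subunit genes Mrps34 (log2 fold change 0.34) and Mrps14 (0.30), with adjusted p of 0.408 and 0.393. The values of Mrps34, Mrps24 (0.30) and Mrps6 (0.37) are uncertain, since each shares exon sequence with a gene on its own strand: Nme3, Urgcp and Slc5a3. The same holds for Mrpl3, which shares exon sequence with the unclassified transcript Gm38077, and Mrpl53, which does with the protein-coding Gm42688. It also holds for Mrps18c (with Gm43511), Mrpl33 (with Gm43809) and Mrpl51 (with Mir3098).

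Other members stood at nearly the same level in both groups. Mrpl13 measured 62.5, 57.7 and 63.2 CPM against 55.2, 66.0 and 64.1 CPM, and its 95% interval for the log2 fold change ran from -0.27 to 0.30. Mrpl15 measured 91.5, 91.2 and 83.4 CPM against 81.0, 103.5 and 84.5 CPM, with an interval from -0.30 to 0.33. Mrps18b measured 47.0, 42.9 and 43.1 CPM against 43.6, 49.1 and 38.7 CPM, with an interval from -0.33 to 0.30. For these genes a change as large as that fitted for any of the 4 that fell lay outside the interval. Mrpl53 and Mrps33 were alike, with log2 fold changes of 0.03 and 0.04, and 32 members in all had a 95% interval inside ±0.5.

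**Figure D2:**
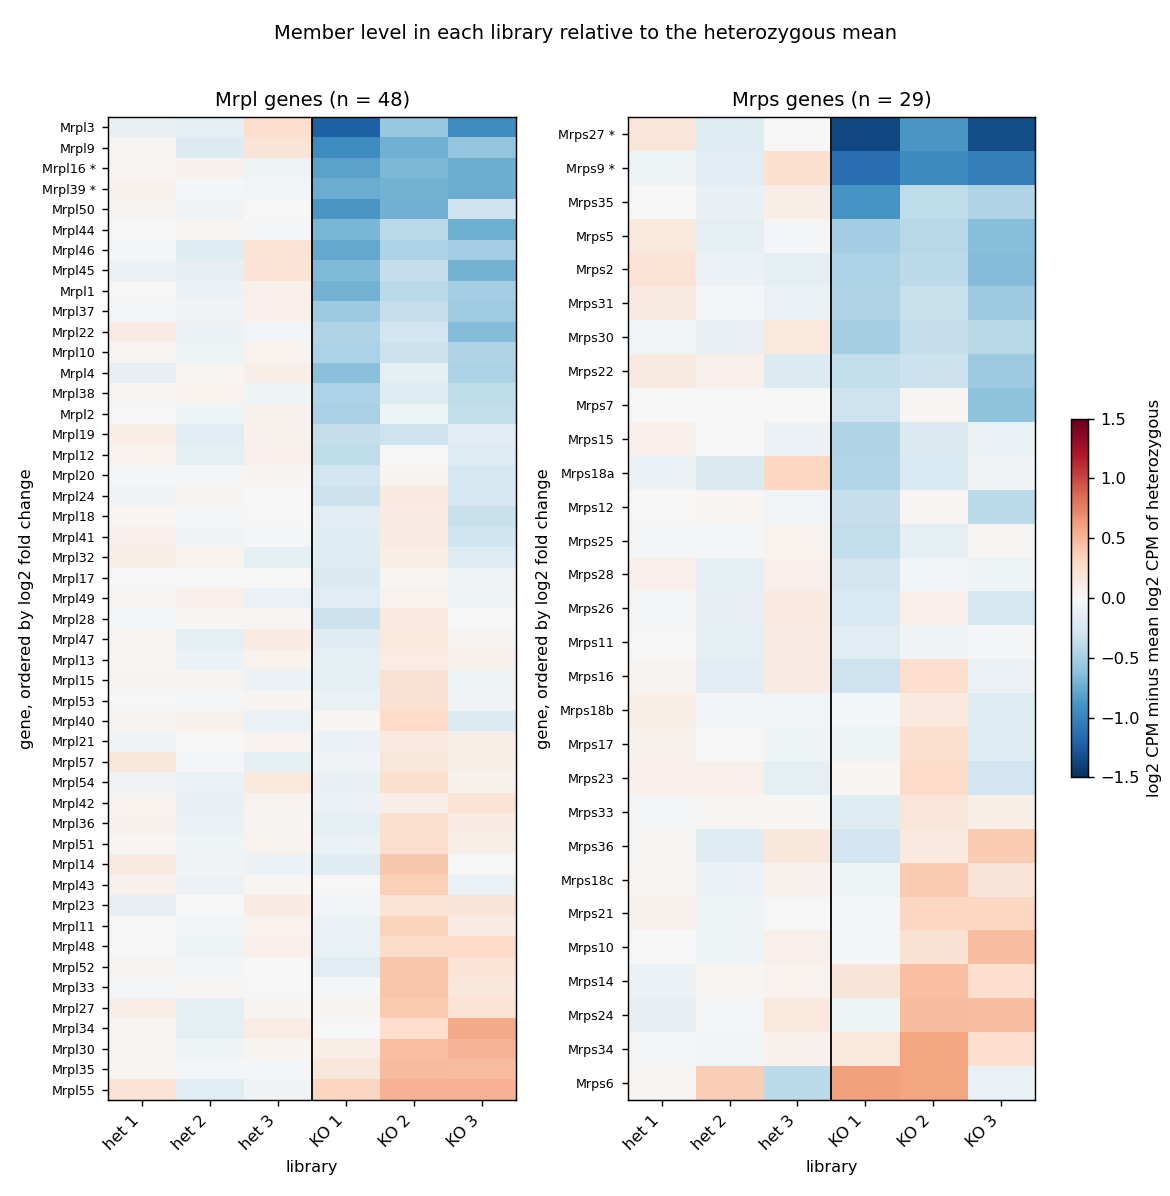
Level of each of the 77 genes (rows, ordered by log2 fold change, Mrpl left and Mrps right) in each of the 6 libraries (columns), as log2 CPM minus the mean log2 CPM of the heterozygous-labelled libraries; blue is lower, red is higher and asterisks mark the 4 genes that fell. The blue rows at the top of both panels include the 23 genes without overlap, and rows further down are pale or red.

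The subunits were compared by symbol first. The 48 Mrpl genes had a median log2 fold change of -0.05, with 2 that fell, 14 lower without overlap and 3 higher without overlap. The 29 Mrps genes had a median of -0.13, with 2 that fell, 9 lower without overlap and 2 higher without overlap. As shares, 29.2% of the Mrpl and 31.0% of the Mrps genes were lower without overlap, beside 9.89% of all tested genes. The shares higher without overlap were 6.25% and 6.90%, beside 8.11% of all tested genes, of which 0.534% fell. The difference of the medians, large minus small, was 0.08 on the log2 scale and changed sign with single settings (-0.0067 without heterozygous library 3, -0.029 with a skeletal muscle score as a covariate).

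Library by library, the mean log2 CPM of the large subunit exceeded that of the small subunit by 0.15, 0.16 and 0.16 in the heterozygous-labelled libraries and by 0.15, 0.18 and 0.21 in the knockout-labelled ones. These values overlap. The symbols do not quite follow the structure: the proteins of Mrps30 and Mrps18a sit in the large subunit, and that of Mrps36 is a subunit of the ketoglutarate dehydrogenase complex and not of the ribosome. With these placed by structure the medians were -0.07 for 50 large-subunit and -0.11 for 26 small-subunit genes. Mrps30 stood at -0.43 (adjusted p = 0.187), Mrps18a at -0.25 and Mrps36 at 0.10 on the log2 fold change scale. Mrps36 has 3 named pseudogenes in the annotation, so some of its reads may align to several copies and its value is uncertain.

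Within functional neighbourhoods the values were mixed. Of the stalk proteins, which recruit the translation factors, Mrpl10 was lower without overlap (log2 fold change -0.41, adjusted p = 0.151), while Mrpl12, at -0.19, and Mrpl11, at 0.13, had overlapping groups. Mrps12, whose bacterial counterpart helps to keep decoding accurate, was at -0.23 with overlapping groups. The paralogs Mrps18a, Mrps18b and Mrps18c, which descend from 1 bacterial protein, were at -0.25, -0.02 and 0.18, none of them past the test. The value of Mrps18c is uncertain, since it shares exon sequence with Gm43511 on its own strand.

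By origin, the 47 genes with a bacterial counterpart had a median of -0.08, with 11 (23.4%) lower and 3 (6.38%) higher without overlap. The 28 mitochondria-specific genes had a median of -0.12, with 12 (42.9%) lower and 1 (3.57%) higher without overlap. Of all tested genes, 9.89% were lower and 8.11% higher. The share lower thus differed more between the classes than the medians did. Mrpl55, whose origin was not assigned here, was placed in neither class. Each class held 2 of the 4 genes that fell. The medians of the 4 combinations of subunit and origin ran from -0.16 to -0.03.

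**Figure D3:**
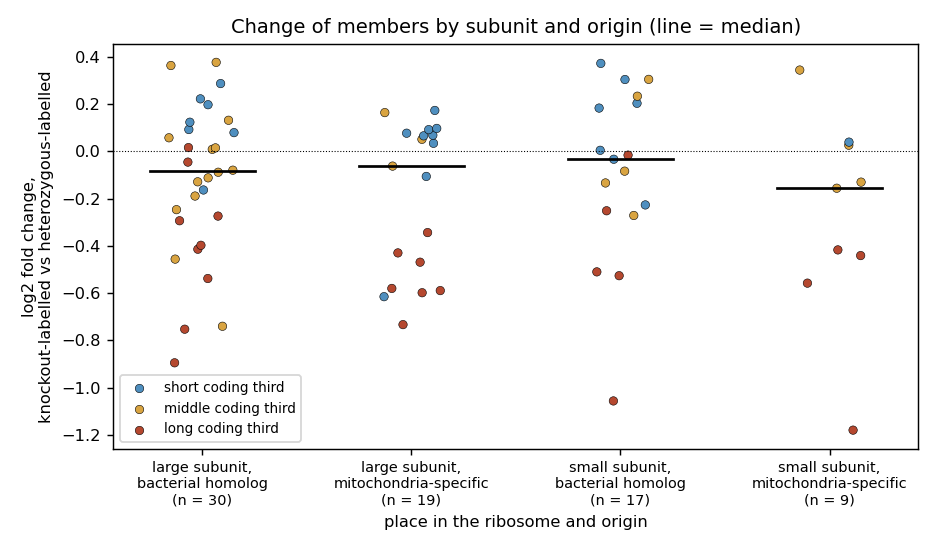
Log2 fold change of 75 ribosomal members (vertical axis; Mrps36 and Mrpl55 are left out) by structural subunit and origin (horizontal axis), with the median of each class as a line and colours for the short, middle and long classes of coding length. The class medians lie close together, while in each class most of the lowest points are long-coding genes.

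Most of the members that were lower without overlap had a long coding sequence. Ordered by coding length (GENCODE M21, the longest principal transcript of each gene) and divided into 3 classes of nearly equal size, the 26 short-coding members (195 to 477 nucleotides) had a median log2 fold change of 0.09, the 26 middle ones (480 to 756) -0.07 and the 25 long ones (762 to 1326) -0.47. In the long class 24 of 25 members were below 0 and 20 (80%) were lower without overlap. Of the 10193 tested genes with coding sequences above 756 nucleotides, 10.9% were lower without overlap. Those genes had no upper limit of length, with a median of 1635 nucleotides beside 960 for the long members, so the 2 sets are not matched in length. In the short class 1 member was lower without overlap and 2 were higher (3.85% and 7.69%), beside 4.76% and 14.3% of all tested genes of such length. In the middle class 2 were lower and 3 higher (7.69% and 11.5%), beside 7.13% and 11.0%.

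Exceptions ran both ways. Mrpl50 was the short-coding member, at 477 nucleotides, that was lower without overlap, and Mrpl16 and Mrpl22 were the middle ones. Among the long-coding members, Mrpl15 (log2 fold change 0.02), Mrps18b (-0.02), Mrpl28 (-0.05), Mrpl19 (-0.27) and Mrpl2 (-0.29) had overlapping groups. Of these names, Mrpl22, Mrpl28, Mrpl19 and Mrpl2 were chosen after their values were seen.

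Over the 77 genes, Spearman's rho between coding length and log2 fold change was -0.72, and it was -0.71 within the 48 Mrpl and -0.76 within the 29 Mrps genes. These values are across genes of the same 6 libraries, and genes are not independent replicates. Each of the 9 pairs of 1 knockout-labelled and 1 heterozygous-labelled library gave a rho between -0.72 and -0.61. These pairs reuse the same 6 libraries and are not independent of one another. The whole mRNA followed less closely, with rho -0.39, the exon number gave -0.45, and the part of the mRNA that is not coding gave -0.094. GC content (0.08) and level (-0.17) gave weak values.

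For comparison, rho with coding length was -0.16 over 12744 tested genes and -0.29 over 75 cytosolic ribosomal protein genes. It was -0.69 over 79 subunits of the respiratory chain and ATP synthase. These sets were chosen after the relation in the family had been seen. Cytosolic ribosomal protein genes, which serve translation in the cytosol, had a median log2 fold change of 0.04. Of 76, 1 (1.32%) was lower without overlap and 0 were called. The subunits of the respiratory chain and ATP synthase, some of which assemble with products of the mitochondrial ribosome, had a median of 0.15. Of 80, 14 (17.5%) were lower and 5 (6.25%) higher without overlap, and 1 was called, which was lower. Of all tested genes, 9.89% were lower and 8.11% higher without overlap, and 0.534% were called lower.

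**Figure D4:**
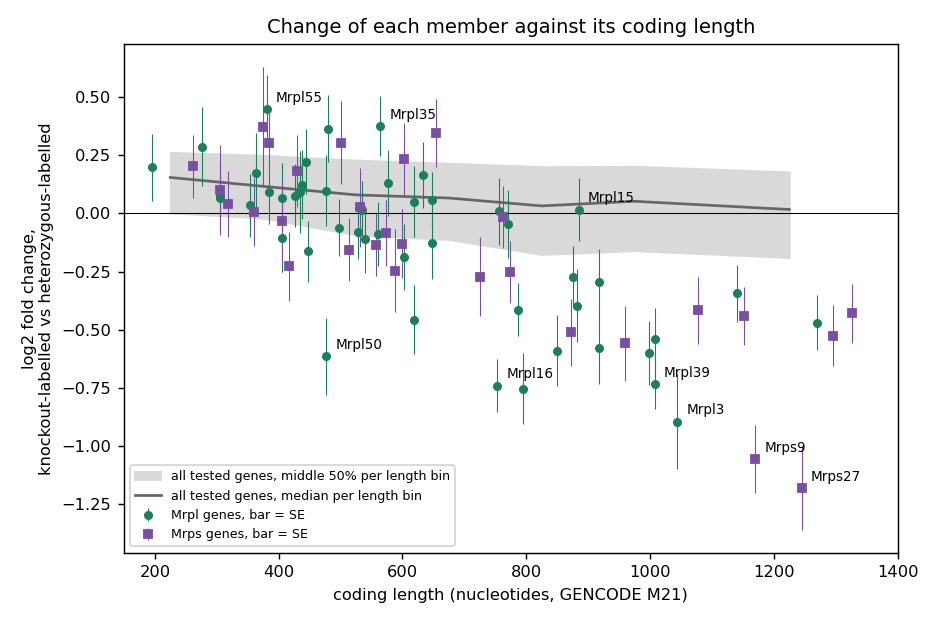
Log2 fold change of each of the 77 genes (points with SE bars; circles Mrpl, squares Mrps) against coding length in nucleotides, with the median (line) and the interquartile range of all tested genes (grey band) in bins of coding length. Short-coding members lie around the line of all genes, and most members above 762 nucleotides lie below the band, with Mrpl15, Mrps18b and Mrpl28 inside it.

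The balance of long-coding against short-coding members could be read in each library. Their mean log2 CPM differed by 0.56, 0.54 and 0.59 in the heterozygous-labelled libraries, and by 0.04, -0.03 and -0.03 in the knockout-labelled ones. The long-coding members themselves averaged 6.08 ± 0.061 and 5.59 ± 0.134 log2 CPM in the groups (SD, n = 3) without overlap, and the short-coding ones 5.52 ± 0.041 and 5.60 ± 0.167 with overlap. Long minus short over all tested genes, whose long class has no upper limit of length, was -0.41, -0.39 and -0.42 against -0.44, -0.67 and -0.53. Within the RF titles the 3 classes had medians of 0.10, -0.01 and -0.44 from short to long, and in the RE pair 0.09, -0.07 and -0.55.

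Other measures moved with the groups as well, and their part in these results was not tested. The share of reads assigned to genes was 43.9% to 48.4% in the heterozygous-labelled libraries and 51.0% to 58.3% in the knockout-labelled ones, and that of reads with several alignments 21.8% to 23.8% against 17.6% to 19.8%. The mean log2 CPM of the skeletal muscle markers was 8.54, 9.75 and 10.11 against 7.86, 7.08 and 7.04. These muscle values did not overlap between the groups, so a fit with them as a covariate cannot tell muscle level and genotype apart. With the muscle level as a covariate, edgeR called 0 members and 0 genes in the whole table. In that fit 7 members (9.09%) and 1.42% of all tested genes were lower at an unadjusted p under 0.05, and the median of the long class was -0.61, beside -0.11 and -0.14 for the short and middle classes.

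**Figure D5:**
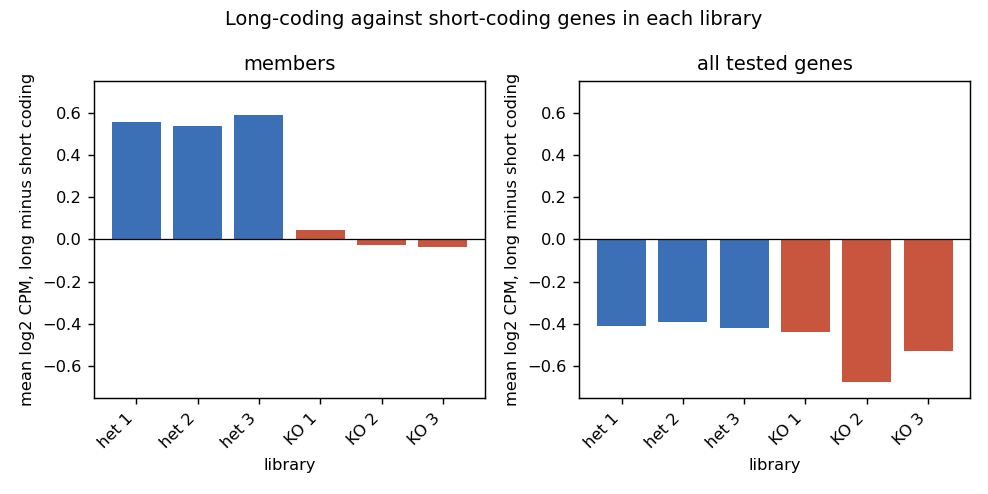
Mean log2 CPM of long-coding minus that of short-coding genes (bars from 0) in each library, for the mitoribosomal genes on the left and for all tested genes on the right; blue bars are heterozygous-labelled and red bars knockout-labelled. The 3 blue bars on the left stand between 0.54 and 0.59 and the red ones near 0. On the right all bars are negative, and every red bar reaches lower than every blue one. The long class on the right has no upper limit of length.

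Levels per kilobase of mRNA allow genes to be set beside one another, although they depend on the transcript chosen for the length. Over both groups together the highest large-subunit genes were Mrpl42, Mrpl34 and Mrpl30 and the highest small-subunit symbols Mrps21, Mrps36 and Mrps15. In the heterozygous-labelled libraries they measured 416 ± 27 CPM per kb for Mrpl42, 140 ± 11 for Mrpl34, 123 ± 4.7 for Mrpl30, and, for the small-subunit symbols, Mrps21 (174 ± 7.5), Mrps36 (125 ± 15) and Mrps15 (114 ± 6.5; SD, n = 3 for each). Mrps36 and Mrpl30 in this order do not differ beyond their spread. Mrpl42 measured 439 ± 44 CPM per kb in the knockout-labelled libraries, within the spread of the groups. Of these 6 genes Mrps15 was lower without overlap (log2 fold change -0.25, adjusted p = 0.563) and Mrpl30 higher.

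The ribosomal proteins whose symbols escape the rule were read from a list. Of 4 small-subunit ones, 0 were called by edgeR and 3 were lower without overlap, all 3 also at an unadjusted p under 0.05. The shares of all tested genes lower by these 2 rules were 9.89% and 8.04%. Ptcd3, another pentatricopeptide-repeat protein of the small subunit, measured 109.4, 109.2 and 113.7 CPM against 74.1, 75.3 and 76.7 CPM, with a log2 fold change of -0.56 (adjusted p = 0.0736). Dap3, a GTP-binding protein of the small subunit, was at -0.49 (adjusted p = 0.207), Aurkaip1 at -0.38 and the short-coding Chchd1 at 0.21. The 2 large-subunit ones, Gadd45gip1 at -0.30 and Ict1 at -0.04, had overlapping groups, and 0 passed an unadjusted p of 0.05.

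Of 16 translation factors, the proteins that work with the mitochondrial ribosome on its mRNAs, 4 fell and none rose. Gfm1, the elongation factor that moves the ribosome along the mRNA, measured 243.8, 214.4 and 194.2 CPM against 88.2, 83.6 and 79.9 CPM, a log2 fold change of -1.37 (adjusted p = 0.0185). Gfm2, which helps to recycle the ribosome, was at -1.02 (adjusted p = 0.0259), Taco1, an activator of translation of a cytochrome oxidase subunit, at -1.21 (adjusted p = 0.0248), and Lrpprc, which stabilises mitochondrial mRNAs, at -0.83 (adjusted p = 0.0418). The median of the 16 was -0.61, and 12 (75%) were lower without overlap. Of all tested genes, 9.89% were lower without overlap and 0.534% fell.

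Of 26 assembly factors, which build the ribosome and modify its RNA, 1 fell: Nsun4, an RNA methyltransferase, at 28.4, 30.3 and 29.7 CPM against 12.7, 13.9 and 16.3 CPM (log2 fold change -1.04, adjusted p = 0.0367). The list had a median of -0.32, and 13 members were lower without overlap. Of 12 genes for mitochondrial transcription and RNA processing, 1 fell: Pnpt1, polynucleotide phosphorylase, at -1.27 (adjusted p = 0.0185), in a list with a median of -0.44 and 8 lower without overlap. None of the genes in either list rose. The shares lower without overlap were 50% and 66.7%, beside 9.89% of all tested genes, of which 0.534% fell. Over these lists for translation, transcription and assembly, rho between coding length and log2 fold change was -0.29 (n = 54).

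Of 10 regulators known to act on nuclear genes of mitochondrial proteins, edgeR called 0, and 1 was lower at an unadjusted p under 0.05. By these rules 0.534% of all tested genes were called lower and 8.04% were lower. The smallest p belonged to Esrrg, an estrogen-related receptor, with a log2 fold change of -0.52 (adjusted p = 0.242), Ppargc1b, a coactivator, at -0.58 (adjusted p = 0.518), and Ppargc1a, its relative, at -0.79 (SE 0.709, adjusted p = 0.805). Ppargc1a had the largest SD in CPM within the groups, at 337 ± 218 and 195 ± 113 CPM (SD, n = 3). It measured 428.8, 494.2 and 87.4 CPM against 259.4, 261.9 and 64.2 CPM. The RE-titled library was the lowest of each group. The median of the 10 was 0.08.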

How the data were processed

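RNA from frozen, pulverised brown adipose tissue of 3 mice per genotype was sequenced, per the labels' protocols. Whole-number counts for each gene symbol are what the authors deposited. The submitters' processing notes give the build mm10 and, with no roles, STAR 2.7.2b, Bowtie2 2.3.4.3, HTSeq, SAMtools 1.9, Trim Galore and edgeR. Neither they nor the labels give the annotation, the strand setting or the handling of multiply aligned reads. If strand was ignored, reads of genes that overlap on opposite strands cannot be told apart; 32 members share exon sequence with another gene.

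Library sizes and tests left out the 5 rows without a gene; genes held 43.9% to 58.3% of each column's reads. The test used edgeR 4.0.16 under R 4.3.3 (TMM, filterByExpr with minimum count 10 and total 15, robust quasi-likelihood F test on genotype, Benjamini-Hochberg over 13300 genes). CPM use TMM-scaled sizes. The biological coefficient of variation was 24.7%. The test was tried on simulated data.

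Symbols were matched to GENCODE M21, 22710 by name, 932 through a RefSeq synonym and 420 not; all 77 members matched. This annotation may differ from that used for counting.

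Libraries were grouped by the genotype label, and replicates numbered in accession order pair nothing. Libraries of a group differed by more than sampling noise. Chi-square over its degrees of freedom was 39.3 and 41.6 between the RF-titled libraries of a group. It was 101 to 126 between an RF-titled and an RE-titled library.

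The members and lists were chosen with earlier results of these data known. Named members were those called, up to 5 per subunit lowest and highest (average log2 CPM 3 or more), the 5 with the smallest change among those with an SE below the members' median, the 3 per subunit highest per kb, the stalk and Mrps12, Mrps36, Mrps30 and Mrps18a to Mrps18c; in other lists, those called or the 3 with the smallest p. Mrpl44 and the members named as exceptions fall outside this rule. The coding-length relation, its comparison sets, origin classes and the muscle-score fit were chosen after seeing the data. The alternatives tried were each library left out, RLE scaling, library size only, no filter, a mean CPM filter of 1, title prefix as a covariate, RF titles alone, DESeq2 1.42.0, limma 3.58.1 voom with quality weights, no robust estimation, muscle markers out of the library sizes, an adjusted p of 0.1 and a muscle score as a covariate.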

Additional observations from a re-analysis of the deposited data

How the results depend on the processing

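The count of members called was 4, all lower, by the main test, and was also 4 under RLE scaling, library size only, no filter, a mean CPM of at least 1, no robust estimation, and muscle markers left out of the library sizes. It was 5 once the title prefix entered the model, 4 in the RF titles alone (3 of them shared), 6 by limma-voom, 14 by DESeq2 and 7 at an adjusted p of 0.1; the share of all genes called lower was 0.534% by the main test and 1.78%, 0.85%, 1.24%, 4.85% and 3.31% in these. With the muscle score as a covariate it was 0, as over all genes. That score did not overlap between the groups, so this fit cannot tell muscle level and genotype apart. Leaving out 1 library gave 0 to 2, with 0% to 2.81% of all genes called lower. The cause was not tested. None of the 4 changed direction: log2 fold changes ran from -1.61 to -1.08 for Mrps27, -1.26 to -0.92 for Mrps9, -0.85 to -0.66 for Mrpl16 and -0.86 to -0.70 for Mrpl39. Large minus small median was 0.08, and 0.029 in the RF titles, -0.0042 by limma-voom and -0.029 with the muscle score; leaving out 1 library gave -0.0067 to 0.11. The large-subunit median fell to -0.23 with the muscle score. Spearman's rank correlation with coding length was -0.63 with that score, and -0.39, -0.45 and -0.094 with mRNA length, exon number and non-coding length. Of 36 named members, 12 that were not called changed sign in some alternative. No paired analysis was possible because the titles give no replicate numbers shared between groups. All members had enough reads for a level, so the 3 animals per group set the precision.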
